A study of Mus musculus with 16 samples.

Results

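The 8 genes described here mark the glial cells of the adrenal: Sox10, Foxd3, Erbb3, Ngfr, S100b, Gfap, Cdh19 and Fabp7. They were chosen by name as cell type markers, with earlier results of these data known, and all 8 were found by Ensembl identifier among the 54838 genes of the deposited count table. Messenger RNA was measured by bulk sequencing of whole adrenal glands from 16 mice of mixed genetic background, 4 weeks of age. The mice formed 4 groups of 4, each library from another individual: female control, female Rspo1 GOF, male control and male Rspo1 GOF. GOF stands for gain of function of Rspo1, which encodes R-spondin 1, a secreted protein that amplifies WNT signalling. The promoter, allele or Cre line behind the gain of function, and the full genotype of the controls, are not given in the sources used here. Animals are numbered 1 to 4 within a group in the order of their records, so the numbers pair nothing.

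The adrenal gland joins a steroid-producing cortex to a medulla of chromaffin cells, which release adrenaline and noradrenaline. Glia enter the gland as Schwann cells that ensheath the preganglionic nerve fibres and as sustentacular cells, which wrap clusters of chromaffin cells and carry S100b, Sox10 and Gfap. Both descend from the neural crest, and Schwann cell precursors that travel along these nerves, marked by Sox10, Foxd3 and Erbb3, are known to give rise to a large share of chromaffin cells. Several of the 8 genes are not exclusive to glia: Ngfr is also carried by sympathetic neurons and Erbb3 by many epithelia. In bulk tissue, fewer cells of a type and less RNA per cell cannot be told apart.

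Library totals lay between 31275146 and 43003968 counts, and CPM stands for counts in 1e6 counts of the scaled library. The GOF libraries were at 353 CPM of Rspo1 or more and the controls at 48.2 or less. Male control 2 stood apart: 10 liver genes summed to 9862 CPM there, against at most 776 in any other library, and 8 neuronal genes to 1365 CPM, against at most 315. Female controls 1 and 3 held 10 kidney tubule genes at sums of 1075 and 179.5 CPM, against at most 3.13 in the other 14 libraries. Each of the 8 markers had counts in all 16 libraries and passed the filter on low counts, as did 18214 genes in all. A call means an adjusted p under 0.05 (Benjamini-Hochberg, over those 18214 genes) in the quasi-likelihood test of edgeR. Log2 fold changes come from the same test and are given ± standard error.

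In GOF adrenals the glial markers were lower in both sexes. In females 7 of the 8 passed the test as lower, while 20.6% of all tested genes did so and 39.6% changed in either direction. In males 8 of 8 passed as lower, against 21.8% of all genes, with 36.9% called in either direction. The median log2 fold change of the 8 was -2.41 in females, where the median of all tested genes was 0.05, and -3.68 in males, where it was 0.01. The split of all calls in males moved with the scaling, from 2761 higher and 3963 lower to 3718 higher and 3547 lower with upper-quartile factors. With limma on the deposited length-scaled values, log2(FPKM + 1), it was 4191 higher and 2648 lower in males. In females that fit moved the split from 3467 higher and 3751 lower to 4151 and 2685. Without male control 2, all 8 markers were called lower in each sex, with medians of -2.41 and -3.15, against 21.1% of all genes in females and 17.8% in males. With all libraries the groups did not overlap for 7 of 8 markers in females, against 20.4% of all genes as lower, and for 8 of 8 in males, against 19.1%.

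**Figure D1:**
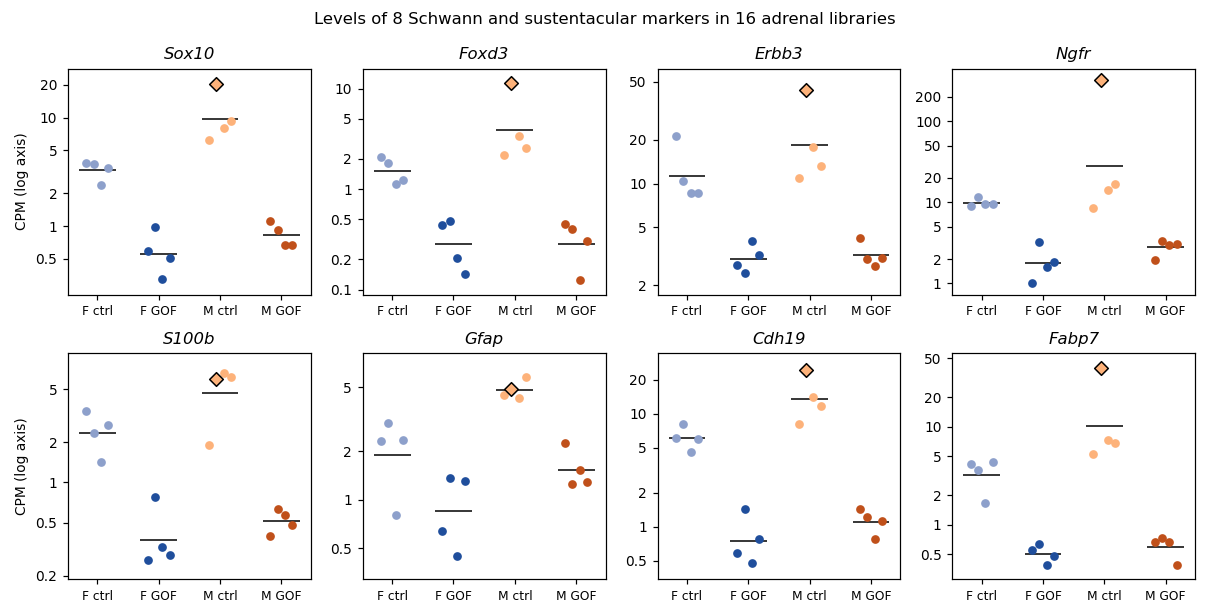
CPM (log axis) of the 8 markers in each of the 16 adrenal libraries, with female control, female GOF, male control and male GOF from left to right in each panel; bars are geometric means of 4 animals and the diamond is male control 2. The GOF points lie below the control points of the same sex in every panel except Gfap in females, where 1 control lies among the GOF animals.

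SOX10 and FOXD3 are the transcription factors of the set: SOX10 is needed to specify peripheral glia and keeps their gene programme active, and FOXD3 acts in neural crest and Schwann cell precursors. Sox10 stood at 3.80, 3.74, 2.37 and 3.46 CPM in female controls 1 to 4 and at 0.584, 0.984, 0.328 and 0.514 CPM in female GOF 1 to 4. It stood at 6.15, 20.2, 7.97 and 9.26 CPM in male controls 1 to 4 and at 1.11, 0.914, 0.675 and 0.664 CPM in male GOF 1 to 4. Every GOF animal was below every control of its sex, and male control 2 had the highest level of all 16. Sox10 fell 5.48-fold in females (log2 fold change -2.45 ± 0.39, n = 4 and 4, adjusted p = 0.000215, edgeR). In males it fell 12.9-fold (-3.69 ± 0.40, adjusted p = 7.25e-06, edgeR), and by 3.21 on the log2 scale without male control 2.

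Foxd3 was the scarcest marker, with 5 to 21 counts per female GOF library and 5 to 17 per male GOF library. It was measured at 2.07, 1.84, 1.14 and 1.23 CPM in the female controls and at 0.438, 0.480, 0.209 and 0.143 CPM in the female GOF animals. The male controls had 2.21, 11.3, 3.37 and 2.58 CPM and the male GOF animals 0.450, 0.400, 0.125 and 0.302 CPM. The groups did not overlap in either sex, and again male control 2 was far above the other male controls. The log2 fold change was -2.28 ± 0.57 in females (adjusted p = 0.00535, edgeR) and -3.92 ± 0.59 in males (adjusted p = 0.000118, edgeR). The male value was -3.08 when male control 2 was left out. On the log2(FPKM + 1) scale, which compresses genes this low, the female call was lost. The Foxd3 exons share 89 bases, 3.8% of their length, with an annotated microRNA gene on the same strand.

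ERBB3 is the neuregulin receptor that Schwann cell precursors and Schwann cells need to survive and migrate along axons, and NGFR, or p75, is the low-affinity receptor for neurotrophins. Erbb3 was present at 21.2, 10.4, 8.64 and 8.68 CPM in the female controls and at 2.75, 2.42, 4.03 and 3.23 CPM in the female GOF group. Its levels were 10.9, 44.0, 17.9 and 13.2 CPM in the male controls and 4.21, 3.06, 2.70 and 3.11 CPM in the male GOF group. No GOF animal reached a control of its sex, although the control levels varied more than for Sox10, with female control 1 and male control 2 highest. Erbb3 fell 3.94-fold in females (-1.98 ± 0.41, adjusted p = 0.00169, edgeR) and 6.57-fold in males (-2.72 ± 0.42, adjusted p = 0.000166, edgeR). In males the log2 fold change was -2.10 without male control 2. Female control 1 is the library with the highest sum of kidney tubule genes, and the part of these in its Erbb3 level was not tested. With female controls 1 and 3 and male control 2 all left out, Erbb3 still fell in females, by 1.63 on the log2 scale (adjusted p = 0.000487, edgeR).

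Ngfr was even among the female controls, at 9.02, 11.7, 9.60 and 9.65 CPM, and lower in the female GOF animals, at 1.02, 3.23, 1.58 and 1.86 CPM. The male controls read 8.54, 317, 14.3 and 16.6 CPM and the male GOF animals 1.96, 3.34, 2.95 and 3.08 CPM. The female groups did not overlap and neither did the male groups, but male control 2 held 24.1 times the mean Ngfr level of the other 3 male controls, 13.2 ± 4.16 CPM (SD, n = 3). Because the test shares its estimate of the spread over all 4 groups, that library widened the error in females too. The female log2 fold change of -2.36 ± 0.95 had an adjusted p of 0.0609 in edgeR and was not called. With male control 2 left out it was -2.37 with an adjusted p of 4.29e-05, and it was also called with any 1 of the other 3 male controls left out. In males Ngfr fell, by 4.98 ± 1.02 on the log2 scale with all libraries (adjusted p = 0.0017, edgeR) and by 2.22 without male control 2 (adjusted p = 0.00011).

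The remaining 4 markers encode proteins of the glial cell body and surface. S100B is a calcium-binding protein and the classical stain for sustentacular cells. S100b was at 3.42, 2.35, 1.42 and 2.70 CPM in the female controls and at 0.263, 0.778, 0.328 and 0.286 CPM in female GOF. In male controls it was at 1.91, 5.96, 6.61 and 6.17 CPM and in male GOF at 0.397, 0.628, 0.575 and 0.483 CPM. The groups stayed apart in both sexes, and here male control 2 was not the highest animal, while male control 1 was well below the other male controls. The log2 fold change was -2.55 ± 0.44 in females (adjusted p = 0.000375, edgeR) and -3.30 ± 0.44 in males (adjusted p = 4.31e-05, edgeR). S100b lies across the opposite-strand gene Dip2a without sharing exon bases with it, and Dip2a was called in neither sex (log2 fold changes of 0.08 and -0.12). The strandness of the counting is not given in the sources used here.

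Gfap, which encodes an intermediate filament of glia, fell least. It was at 2.31, 2.999, 0.800 and 2.35 CPM in the female controls and at 0.643, 1.37, 0.448 and 1.31 CPM in female GOF. The male controls had 4.52, 4.91, 4.29 and 5.81 CPM and the male GOF animals 2.25, 1.26, 1.53 and 1.30 CPM. In females the groups overlapped, since female control 3 lay below female GOF 2 and 4, and in males they did not. Gfap fell 2.23-fold in females (-1.15 ± 0.40, adjusted p = 0.0311, edgeR) and 3.08-fold in males (-1.62 ± 0.39, adjusted p = 0.00487, edgeR). The female call was lost with female control 1, 2 or 4 or female GOF 1 or 3 left out, where the log2 fold change ran from -1.11 to -0.94 and the adjusted p reached 0.0982 in edgeR. It was also lost in 5 of 14 other settings: with only the female groups fitted, with limma on log2(FPKM + 1) with and without a filter, with voom quality weights, and with female control 1 and male control 2 both left out. The male value was -1.62 without male control 2, and that library held 1.01 times the mean of the other male controls.

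Cdh19, a cadherin of Schwann cells and their precursors, had the largest fall in females. It ran at 6.14, 8.19, 4.55 and 5.92 CPM in the female controls and at 0.584, 1.44, 0.477 and 0.771 CPM in female GOF. Male controls were at 8.12, 24.5, 14.0 and 11.8 CPM and male GOF at 1.43, 1.23, 0.775 and 1.12 CPM. Neither sex showed any overlap. Cdh19 fell 7.49-fold in females (-2.90 ± 0.39, adjusted p = 4.95e-05, edgeR) and 12.8-fold in males (-3.68 ± 0.39, adjusted p = 6.14e-06, edgeR).

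Fabp7, a brain-type fatty acid binding protein of glial precursors and sustentacular cells, was at 4.15, 3.64, 1.66 and 4.34 CPM in the female controls and at 0.555, 0.641, 0.388 and 0.486 CPM in female GOF. Male controls were at 5.32, 40.2, 7.38 and 6.93 CPM and male GOF at 0.662, 0.742, 0.675 and 0.392 CPM. The groups did not overlap in either sex, and the 8 GOF animals lay within 0.388 to 0.742 CPM. Fabp7 fell 6.61-fold in females (-2.72 ± 0.59, adjusted p = 0.00227, edgeR) and 24.0-fold in males (-4.59 ± 0.63, adjusted p = 5.32e-05, edgeR). Male control 2 held 6.14 times the mean of the other male controls, and without it the male log2 fold change was -3.40.

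**Figure D2:**
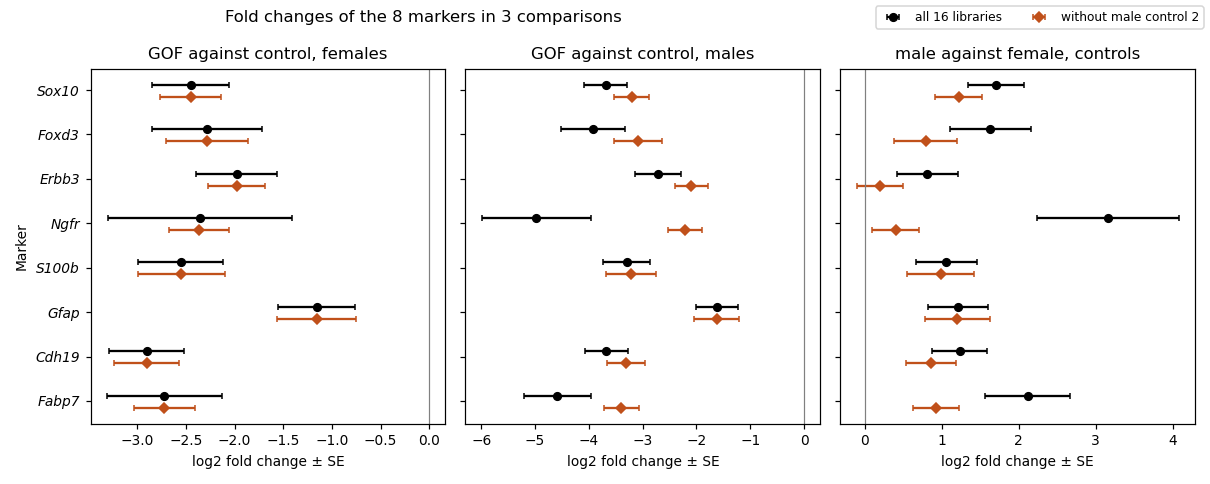
Log2 fold change ± standard error of the 8 markers for GOF against control in females, the same in males, and male against female controls; black circles use all 16 libraries and orange diamonds leave out male control 2. The fall in both sexes stays below 0 without that library, and Ngfr in males moves from -4.98 to -2.22. The differences between male and female controls shrink for all markers but Gfap, which stays nearly the same at 1.21 and 1.20.

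The promoter windows are shown for Gfap, the marker that fell least, and Fabp7, among those that fell most, a choice made after their values were seen. RefSeq's table for GRCm38.p6 gave promoters for 5 of the 8 genes (Foxd3, Fabp7, S100b, Ngfr and Gfap), and the 250 bases before each start were read. Capitals mark matches to a SOX motif of 7 letters, searched on both strands as AACAAAG and its forms with T in place of A at the first, second or sixth letter.
Gfap (chr11:102897201-102897450, minus strand): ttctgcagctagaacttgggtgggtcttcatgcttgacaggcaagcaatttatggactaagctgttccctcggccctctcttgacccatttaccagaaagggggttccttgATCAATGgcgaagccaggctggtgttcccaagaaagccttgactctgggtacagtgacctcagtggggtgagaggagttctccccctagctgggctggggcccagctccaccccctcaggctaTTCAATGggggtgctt
Fabp7 (chr10:57784673-57784922, plus strand): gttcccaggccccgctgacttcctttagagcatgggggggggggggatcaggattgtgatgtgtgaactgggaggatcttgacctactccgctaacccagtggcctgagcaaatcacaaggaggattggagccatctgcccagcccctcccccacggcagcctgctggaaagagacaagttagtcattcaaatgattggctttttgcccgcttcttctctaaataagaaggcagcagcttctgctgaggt
Gfap had 2 matches, ATCAATG at bases -139 to -133 and TTCAATG at -16 to -10, counted from the start. The other 4 windows had none, while 21.8% of 32851 mouse windows of the same length held at least 1. A shorter search for ACAAAG or ACAATG was run first and matched none of the 5 windows, against 25.2% of all. Neither the TCF/LEF motif CTTTGAT, whose reverse complement ATCAAAG is also among the SOX forms, nor the forkhead motif TGTTTA was found in the 5 windows; they occurred in 3.2% and 12% of all. A match is a description of letters, and no match says only that these letters are not in the window.

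Between male and female controls, the markers were higher in males, but most of these calls rested on single libraries. All 8 log2 differences were above 0, from 0.81 for Erbb3 to 3.16 for Ngfr, and 6 passed the test as higher, against 13.5% of all tested genes (23.4% called in either direction). Sox10 was 3.26-fold higher in males (1.70 ± 0.37, adjusted p = 0.00432, edgeR), with no overlap between the groups. Foxd3, Gfap and Fabp7 also stood apart, which makes 4 of 8 against 14.4% of all genes, at log2 differences of 1.63, 1.21 and 2.11, whereas Ngfr and Cdh19 (1.23) were called although male control 1 lay below every female control for Ngfr and among the females for Cdh19. S100b (1.06 ± 0.40, adjusted p = 0.0685) and Erbb3 (0.81 ± 0.40, adjusted p = 0.149) did not pass in edgeR.

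Without male control 2, only Sox10 (1.22, adjusted p = 0.0129, edgeR) and Fabp7 (0.92, adjusted p = 0.0483) were still called, 2 of 8 against 9.39% of all genes as higher. The Ngfr difference between control sexes was 0.40 in that fit. Leaving out female control 3 or female control 4 likewise left 2 calls, against 7.4% and 9.71% of all genes as higher, and leaving out female controls 1 and 3 with male control 2 left 0, against 3.89% of all genes as higher, with log2 differences from 0.30 to 1.11. The sample titles carry numbers that fall into 4 ranges, which the labels do not call a batch. With the range as a covariate 0 of the 8 control differences were called, though the Sox10 difference was 1.76, and 3.46% of all genes were called higher. Of the 4 ranges 1 holds both sexes, so range and sex cannot be told apart in the others. In that fit GOF against control gave 7 calls in females and 8 in males, against 18.2% and 19.6% of all genes as lower.

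Within GOF adrenals the sexes were not told apart by any of the 8 genes. None was called, against 29.6% of all tested genes, and 0 of the 8 reached an unadjusted p under 0.05 in edgeR. The log2 differences of male against female ran from -0.01 for Foxd3 (95% interval -1.27 to 1.25) to 0.74 for Gfap (-0.12 to 1.60). For Sox10 the difference was 0.47 with an interval of -0.38 to 1.32, and for Ngfr 0.54 with -1.52 to 2.61, so differences of over 2-fold are not excluded for either. The summed level of the 8 genes was 6.83 to 11.3 CPM in female GOF and 10.01 to 12.5 CPM in male GOF. In controls the sum was 30.2 to 52.1 CPM in females and 47.7 to 468 CPM in males, where the second highest library stood at 75.7 CPM.

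Whether GOF lowered the markers more in males than in females was tested as the interaction of sex and genotype. No marker was called, against 4.21% of all tested genes, and 2 had an unadjusted p under 0.05 in edgeR. These were Sox10, with a log2 difference of -1.23 (95% interval -2.40 to -0.07, adjusted p = 0.207), and Fabp7, with -1.86 (-3.62 to -0.11, adjusted p = 0.208). All 8 estimates were below 0, a larger fall in males, from -2.62 for Ngfr to -0.47 for Gfap. Without male control 2 the Ngfr estimate turned to 0.15, Fabp7 was -0.67, Foxd3 -0.80 against -1.64, and Erbb3 -0.12 against -0.74.

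Compared per length, in FPKM as the authors deposited it, the 8 markers were ordered within each group by their mean level. In female controls Fabp7 was highest at 3.97 ± 1.46 FPKM (SD, n = 4), followed by Ngfr at 2.79 ± 0.286, Cdh19 at 2.54 ± 0.593, Erbb3 at 1.97 ± 0.984, Sox10 at 1.76 ± 0.359, S100b at 1.61 ± 0.562, Gfap at 1.09 ± 0.478 and Foxd3 at 0.652 ± 0.189. The ranges of each pair of neighbours in this order overlapped, so the order itself is not firm. In female GOF the range was from 0.619 ± 0.133 FPKM for Fabp7 to 0.138 ± 0.0731 for Foxd3. In male controls Ngfr came first at 24.8 ± 42.0 FPKM, a mean set by male control 2 at 87.8 FPKM, and Fabp7 next at 17.1 ± 19.0. Gfap, which ranked above Foxd3 alone in both control groups, came first in male GOF at 0.894 ± 0.250 FPKM. Foxd3 was last in all 4 groups, and S100b above Foxd3 in male GOF was the only pair of neighbours in any group whose ranges did not overlap.

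The falls of the glial markers were set beside those of chromaffin genes, the endocrine cells of the medulla. The 10 chromaffin genes, among them the catecholamine enzymes Th, Dbh, Ddc and Pnmt and the granule protein genes Chga and Chgb, were all called lower in both sexes, beside 20.6% of all tested genes in females and 21.8% in males. Their median log2 fold change was -3.81 in females and -4.09 in males, and Pnmt, which makes adrenaline from noradrenaline, fell by 4.93 and 5.05 on the log2 scale (adjusted p = 3.27e-05 and 2.06e-05, edgeR). None of the 10 was at 0 in any library, and their summed level among females was 5514 to 12430.0 CPM in controls and 238 to 890.3 in GOF, and among males 9126 to 13040.0 and 467 to 1015. The log2 ratio of each marker to the geometric mean of these 10 genes was then taken in each library. That ratio was higher in GOF than in control for all 8 markers in both sexes, by 1.03 (Cdh19) to 2.85 (Gfap) in females and by 0.14 (Fabp7) to 2.49 (Gfap) in males. The median log2 fold change of all tested genes was 0.05 in females and 0.01 in males. A gene that did not change would therefore also have a higher ratio, and a higher ratio is not particular to the markers. The share of all genes with a higher ratio was not determined. The male Fabp7 difference did not keep its sign: it was -0.05 against Th alone, and below 0 with male control 1 or 3 or male GOF 2 or 3 left out, at -0.07 at the lowest. The fitted falls of Ngfr (-4.98) and Fabp7 (-4.59) in males were also larger than the chromaffin median, but not without male control 2, where they were -2.22 and -3.40 against a median of -3.87.

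In females the groups did not overlap for 7 of the 8 ratios, all but Erbb3, and in males for Erbb3 and Gfap. Each of these 9 had p = 0.02857 in a 2-sided exact permutation test, the smallest that 4 against 4 allows, and 0.05079 after Benjamini-Hochberg adjustment over the 16 tests. No ratio therefore passed 0.05, and the share of all genes whose ratios lay apart in this way was not determined. Gfap moved from -6.97 ± 0.654 to -4.12 ± 0.411 in females, and among males from -6.29 ± 0.373 to -3.80 ± 0.555 (SD, n = 4). Calculated from log2(FPKM + 0.1), 7 female and 3 male ratios passed 0.05, and without male control 2 the male ratios of Erbb3, Ngfr and Gfap passed, with Ngfr at 1.79 in place of 0.78. The share of all genes whose ratio would pass in these settings was not determined, so the counts are not particular to the markers.

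**Figure D3:**
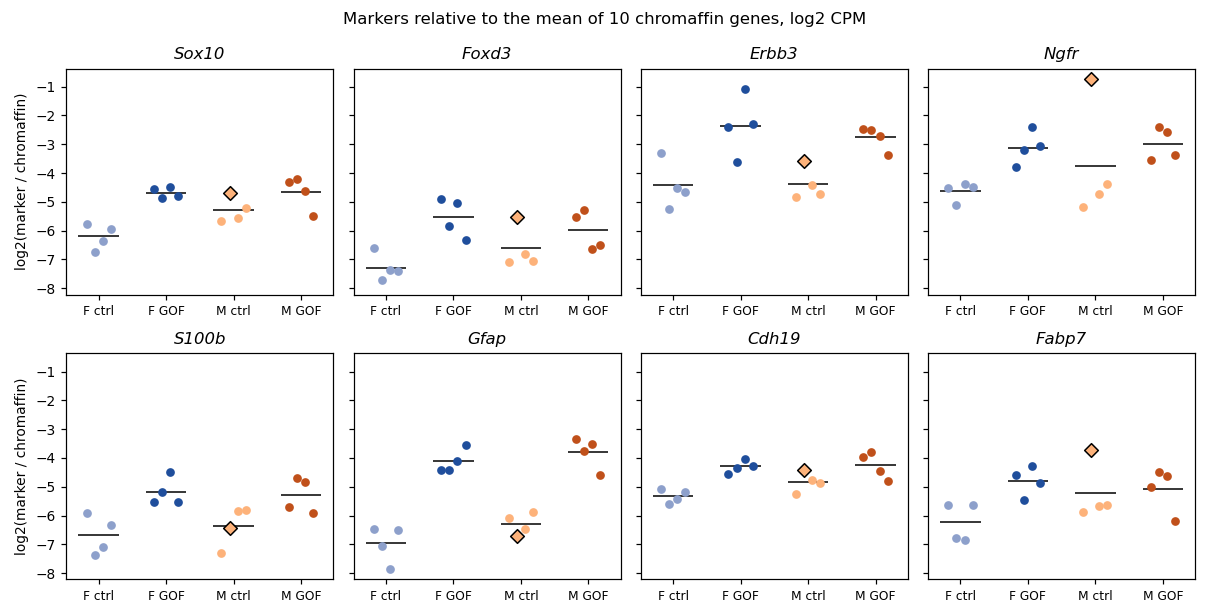
Log2 ratio of each marker to the geometric mean of 10 chromaffin genes, per library, in female control, female GOF, male control and male GOF; bars are group means and the diamond is male control 2. GOF points lie above the controls in females for all markers but Erbb3, where they overlap, and the widest gap is that of Gfap in both sexes.

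Other genes of peripheral glia fell with the 8 markers. Of 12 such genes, 11 passed the filter, and 10 were called lower in each sex, beside 20.6% of all tested genes in females and 21.8% in males, with medians of -2.54 in females and -2.90 in males. L1cam, an adhesion molecule of axons and Schwann cells, fell by 2.76 in females and 3.93 in males on the log2 scale (adjusted p = 0.000551 and 3.93e-05, edgeR), and by 3.17 in males without male control 2. Gjc3, a gap junction protein of myelinating glia, fell by 4.26 in males (adjusted p = 0.000281, edgeR), and by 3.11 without that library (adjusted p = 0.00024). Sox2, a factor of immature glia, was called lower in both sexes from few counts, with 4 to 15 per female control library and 0 to 2 per female GOF library.

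Dhh, the hedgehog ligand that Schwann cells send to the sheath around nerves, went the other way in females. Its level was 1.06 to 2.26 CPM in the control females and 3.59 to 4.51 CPM in the GOF females (1.20 ± 0.28 in log2, adjusted p = 0.00339, edgeR). In males the change was 0.24 and not called, and the difference between the sexes was not called either (-0.97, adjusted p = 0.177, edgeR). Leaving out male control 2, 9 of the 11 genes of the list were called lower in males, beside 17.8% of all genes, with a median of -2.39.

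Of 10 genes of compact myelin 9 were tested and 3 were called lower in each sex, beside 20.6% and 21.8% of all genes, with medians of -0.92 and -0.86. Mal, a proteolipid of the myelin sheath, was called in both sexes, Cldn19 in females and Drp2 in males. Mbp (-0.19 in females) and Pmp22 (-0.14), components of the myelin sheath, were not called in either sex. The myelin calls depended on single libraries: 1 of 9 was called in females without female control 1, beside 3350 of 18550 genes as lower. Without male control 2 there were 4 of 9 in females and 0 of 9 in males, beside 21.1% and 17.8% of all genes as lower. The male median was -0.41 in that fit.

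ERBB3 binds the neuregulins NRG1 and NRG2 and signals through its partner ERBB2, while NRG3 and NRG4 are ligands of ERBB4. Erbb2 was at 9.13 to 22.1 CPM in female controls and 12.3 to 17.6 in female GOF (0.09 ± 0.22, not called), and was not called in males (0.24 ± 0.22). Of the 6 neuregulin and receptor genes of the list, 3 were called lower in each sex, beside 20.6% of all tested genes in females and 21.8% in males. Nrg3 fell by 3.72 in females and 4.17 in males on the log2 scale (adjusted p = 2.62e-05 and 7.92e-06, edgeR), and Nrg4 by 1.55 and 2.58 (adjusted p = 0.0172 and 0.000783). The other call was Erbb4 in females (-1.45) and Nrg1, the classical Schwann cell growth factor, in males (-1.57), where the groups overlapped. Without male control 2 the male count was 2 of 6, beside 17.8% of all genes, with Nrg1 at -0.90 and not called. With female controls 1 and 3 left out as well the female count was 1 of 6, that of Nrg3, beside 2881 of 18935 genes called lower.

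Of the neurotrophins and the receptors that work with NGFR, 7 were tested and 4 were called lower in both sexes, beside 20.6% and 21.8% of all genes. Among the 4 were Ntrk2 and Ntrk3, the receptor kinases for BDNF and NT-3, and Sort1, the NGFR co-receptor for proneurotrophins. Ntrk2 lay at 27.5 to 42.8 CPM in female controls and 2.22 to 9.29 in female GOF (-2.97 ± 0.37, adjusted p = 3.29e-05, edgeR). Bdnf and Ntf3 were not called in either sex, although their female groups did not overlap (-0.71 and -0.83).

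**Figure D4:**
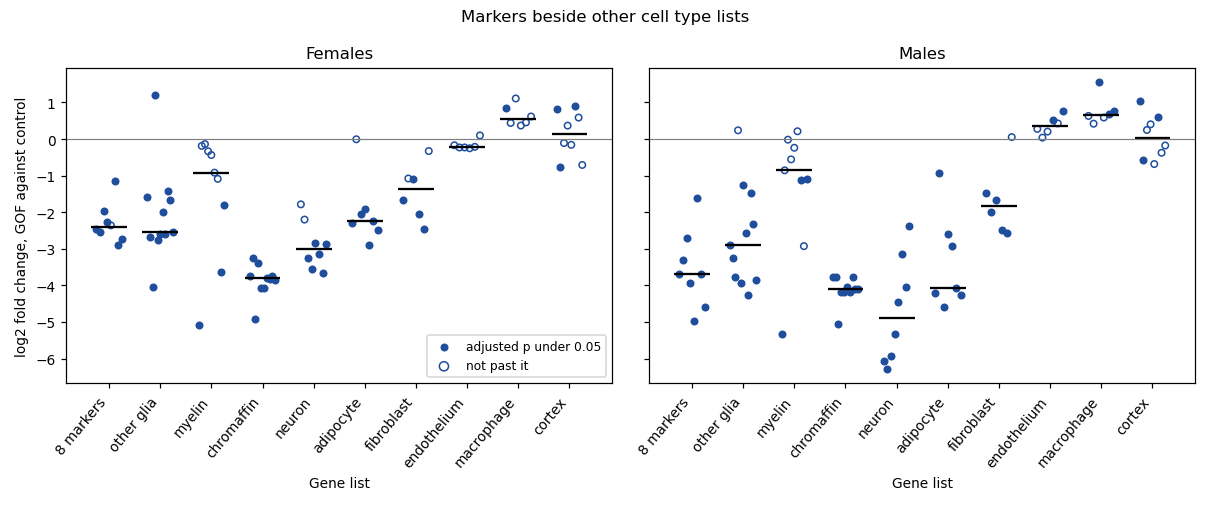
Log2 fold change of GOF against control for each tested gene of 10 lists, in females (left) and males (right); filled circles had an adjusted p under 0.05, open circles did not, and bars are medians. The 8 markers have medians of -2.41 and -3.68, between those of the chromaffin genes (-3.81 and -4.09) and the myelin genes (-0.92 and -0.86).

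Markers of several other cells moved beside the glial genes. Of 8 neuronal genes, 6 were called lower in females and 8 in males, with medians of -2.998 and -4.89. For this and the next lists the shares of all tested genes called lower were 20.6% in females and 21.8% in males. Without male control 2 the neuronal counts were 8 in females and 6 in males, beside 21.1% and 17.8% of all genes, and the male median was -3.49. Their summed level among females was 115 to 315 CPM in controls and 9.55 to 28.5 in GOF, and among males 208 to 1365 and 17.6 to 39.4. Npy alone averaged 144 CPM in control females, where the mean sum was 184, and 217 CPM in control males, where it was 510. The part of chromaffin cells in the level of these 8 genes was not tested. Of 7 adipocyte genes, 6 and 7 were called lower, their sum going from 1649 to 2467 to 457 to 845 CPM in females and from 1971 to 5054 to 392 to 487 CPM in males. Of 6 fibroblast genes, 4 and 5 were called lower, with sums of 981 to 1155 and 256 to 599.6 CPM in females and 1211 to 3990.0 and 610.5 to 769 CPM in males. The part of nerve, fat and connective tissue around the gland in the level of the 8 markers was not tested.

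Of 8 steroidogenic cortex genes, 3 were called in each sex, a share near the 39.6% and 36.9% of all genes. Nr5a1, the master factor of steroidogenic cells, rose in log2 by 0.82 in females and 1.04 in males, the enzyme gene Hsd3b1 rose by 0.89 and 0.61, and Star, which brings cholesterol into mitochondria, fell by 0.78 and 0.57 (adjusted p from 0.00224 to 0.0437, edgeR). In males the calls of Hsd3b1 and Star were lost without male control 2, and in females those of Nr5a1 and Star with female controls 1 and 3 left out as well. Of all 18214 tested genes, 3467 were called higher in females and 2761 in males, and 1921 of 18501 in males without male control 2. No endothelial gene of 6 was called in females and 2 were higher in males, against 1 without male control 2. Macrophage genes were called higher for 1 of 6 in females, a share near that of all genes (Adgre1, 0.86, not called with the 3 libraries that stand apart left out). In males 3 of 6 were called higher (among them Cd68, 1.56), and 0 of 6 without male control 2. Of 6 melanocyte genes, which share the Schwann cell precursor as an origin, 3 were tested. Dct and Mitf were called lower in both sexes, Mitf by 0.59 and 0.56 on the log2 scale (not called in males without male control 2, nor in females with all 3 libraries left out), and Dct from 8 to 21 counts per library to 0 to 5 in females. Liver genes were called lower for 1 of 10 in females and 10 of 10 in males, but for 1 of 10 in males without male control 2. The 2 tested kidney tubule genes, Lrp2 and Cubn, were called lower in females, with overlapping groups, and not in males. With female controls 1 and 3 and male control 2 left out neither was called in females, at 1.76 and 0.50, and Cubn was called higher in males (1.15).

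Across the 16 libraries the markers moved together, since they fell in the same groups. Pearson's r with Sox10 in log2 CPM ran from 0.866 for Gfap to 0.987 for Cdh19. After each group's mean was removed, r ran from 0.513 for Erbb3 to 0.906 for Cdh19. Without male control 2, over 15 libraries, Cdh19 was at 0.867, Gfap at 0.745, Fabp7 at 0.719 and Foxd3 at 0.694, S100b at 0.613, Ngfr at 0.389 and Erbb3 at 0.0633. These values describe libraries that share depth, scaling and dissection, and no test is given.

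Of 13662 other protein-coding genes with a mean of at least 1 CPM, the 5 most like Sox10 over the 16 libraries had r from 0.987 to 0.989, among them Scn3b, Grik3, Kcna2 and Clip3. Within groups the 5 most like it had r from 0.935 to 0.959, and from 0.892 to 0.928 without male control 2, and included Scn3b, Cacna1b, Dnm1 and Fsd1. Scn3b encodes a sodium channel subunit, Kcna2 a potassium channel, Cacna1b the N-type calcium channel, Grik3 a kainate receptor subunit and Dnm1 a dynamin of synaptic vesicle recycling. Scn3b ranged over 8.49 to 13.2 CPM among control females and 0.865 to 3.25 among GOF females, and over 17.3 to 59.9 and 1.30 to 2.28 CPM among control and GOF males. Dnm1 fell by 3.10 and 3.69 on the log2 scale in females and males (adjusted p = 5.96e-06 and 1.34e-06, edgeR).

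Male control 2 was the highest of all 16 libraries for 6 of the 8 markers, all but S100b and Gfap. Its levels relative to the mean of the other 3 male controls ran from 1.01 for Gfap, 1.22 for S100b, 2.17 for Cdh19, 2.59 for Sox10, 3.15 for Erbb3 and 4.17 for Foxd3 to 6.14 for Fabp7 and 24.1 for Ngfr. Beside them stood the neuronal genes Prph at 44.4 times and Nefl at 21.1 times, and liver genes with a median of 242 times. Chromaffin genes had a median of 1.49 times. The part of these other tissues in the marker levels of that library was not tested.

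**Figure D5:**
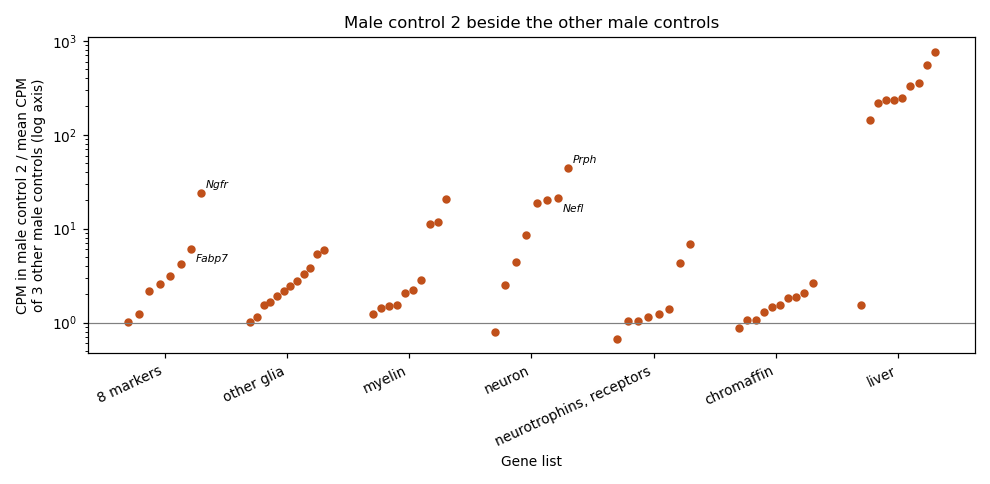
CPM in male control 2 divided by the mean CPM of the other 3 male controls (log axis) for the genes of 7 lists; each point is a gene and the line marks a ratio of 1. Ngfr and Fabp7 lead the 8 markers at 24.1 and 6.14, Prph stands at 44.4, and the liver genes have a median of 242, with Cyp2e1 lowest at 1.55.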

How the data were processed

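Gene expression was measured in 16 mouse adrenal libraries, each from another mouse per the series' design text. Per the labels, NEBNext Ultra libraries were made from total RNA (integrity cut-off 7.0) and read as 150 bp pairs. The submitters' processing notes name Bowtie2 2.2.3, TopHat2 2.0.12, HTSeq 0.6.1 and DESeq 1.18.0, without their roles; build, annotation and strandness are not given in the sources used here. The deposited counts are whole reads per Ensembl gene, not normalized. The authors also deposited FPKM, scaled to gene length and library total. The lengths they imply lay within 1% of mean transcript lengths of GENCODE M21 (GRCm38) for 98.0% of 34180 genes, so symbols come from that annotation.

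From the counts, TMM factors, filterByExpr by group, edgeR 4.0.16 (R 4.3.3; quasi-likelihood test with robust fitting) with a mean for each of 4 groups, and Benjamini-Hochberg adjustment over 18214 genes gave the calls at 0.05. Standard errors were derived from F statistics, and 95% intervals from these and the residual degrees of freedom. Marker ratios used log2 CPM with a prior count of 2 and exact permutation tests. Alternatives used DESeq2 1.42.0, limma 3.58.1 on log2 FPKM (a pseudocount of 1 or 0.1), voom weights, RLE or upper-quartile factors, other filters, fewer groups or libraries, the title number range as a covariate and a fold threshold. No library repeated another: in 24 pairs within groups, chi-square over its degrees of freedom was never below 29.53. The scripts were tested on simulated data.

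The 8 markers and the other gene lists were chosen with earlier results of these data known. The rule for names took all 8 markers in each comparison, the 2 called genes with the highest and the 2 with the lowest fold changes of each other list per comparison, and the 5 genes most like Sox10 by Pearson's r, over all libraries and within groups. Mbp, Pmp22, Mal, Ntf3, Erbb2, Erbb4, Nrg1, Sort1, Cyp2e1 and Dhh in males were named outside that rule, after their values were seen. Some genes that the rule names are not reported here. Promoters came from RefSeq for GRCm38.p6. Plots used matplotlib 3.10.9 in Python 3.11.15.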

Additional observations from a re-analysis of the deposited data

Results flagged for a closer look

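Each of the 8 markers was looked at in each of the 4 groups of 4, which makes 32 groups, for an animal whose distance to its nearest neighbour took up more of the group's whole range than Dixon's 95% critical value allows. Chance alone gives such an animal in about 1 in 20 groups, and 6 of the 32 had one. In male controls these were Ngfr at 317 CPM, Fabp7 at 40.2 CPM and Foxd3 at 11.3 CPM, all high in male control 2, and S100b at 1.91 CPM, low in male control 1. Among female controls it was Erbb3 at 21.2 CPM, high in female control 1, and among female GOF animals S100b at 0.778 CPM, high in female GOF 2. In each case the animal's neighbours were closer to each other than to it. Male control 2 is also the library with the highest liver and neuronal sums, and female control 1 that with the highest kidney tubule sum; their part in these values was not tested.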

How the results depend on the processing

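No paired analysis was possible because the labels give the animals of different groups no shared replicate numbers. Of the 8 markers, 5 to 8 were called lower in females and 6 to 8 in males under 14 other settings, and 6 to 8 and 8 with each library left out; the filter of at least 10 counts in every library drops S100b and Foxd3. The calls between GOF sexes and for the interaction numbered 0 in every setting run. Male against female controls gave 3 calls without a filter and 3 with limma on log2(FPKM + 1) without a filter, 2 with only the groups compared, 0 with the title number range as a covariate, 2 without female control 1 and male control 2, 0 without female controls 1 and 3 and male control 2, and 2 to 7 with each library left out; the cause was not tested. Relative to chromaffin genes, log2(FPKM + 0.1) gave 7 calls in females and 3 in males, and leaving out each library gave 0 to 3 in males. For these ratios no share of all genes was determined.

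Values that changed sign were not called in any setting. For Foxd3 between GOF sexes they were 0.0034 (RLE), 0.0421 (upper quartile), 0.0055 (DESeq2), 0.0067 (no filter), 0.0082 (limma on log2(FPKM + 1), with and without the filter), 0.0491 (log2(FPKM + 0.1)), 0.2568 (voom weights) and -0.2361 to 0.2806 with each library left out. Erbb3 there was -0.0826 with the title range and -0.0632 to 0.2330 with each library left out. The Ngfr interaction was 0.1511 without male control 2, 0.1973 without female control 1 as well, 0.2440 without female control 3 too, and -2.9964 at its lowest. The Fabp7 ratio in males was -0.0467 against Th alone and -0.0704 to 0.6484 with each library left out.

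Over all genes, 7218 calls in females fell to 3121 with a fold threshold of 1 (log2) and 4554 without the 3 libraries named above, 6724 in males to 3366 with the threshold, 4266 between control sexes to 1405 with it, 1311 with the title range, 2650 without female control 3 and 1648 without the 3 libraries, and 5394 between GOF sexes to 1814 with the threshold and 1336 with the title range. The 766 interaction calls ranged from 175 without the 3 libraries to 1516 with voom weights. Upper-quartile factors turned 2421 higher and 2973 lower calls between GOF sexes into 2885 and 2344, and moved the median of all genes in the interaction from -0.06 to 0.05. Ngfr has no adjusted p in DESeq2 for GOF against control in males and between control sexes. In the GOF groups Foxd3 rests on as few as 5 counts, which limits its precision.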
